A study of Mus musculus with 62 samples.

Results

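The genes examined were the 7 members of a short histone list: H3f3a and H3f3b, which both encode the histone variant H3.3, Daxx, which encodes the H3.3 chaperone removed in these mice, and Hira, Ubn1, Cabin1 and Asf1a, which encode partners of the other H3.3 deposition route. They are 7 of the 21951 protein-coding genes of the mouse annotation (GENCODE M21 on mm10), and the members were chosen by name. For each gene, the listed sites that overlapped the gene body with 20 kb on either side were collected from 14 site tables, which gave 651 of 1743368 sites. The question was whether, beyond the deleted exons of Daxx itself, chromatin at the 6 partner genes differed after Daxx loss.

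The data were CUT&Tag profiles, in which a transposase tethered to an antibody cuts and tags DNA next to the bound protein, of bone marrow haematopoietic stem and progenitor cells (HSPCs; Lin-, c-Kit+, enriched on magnetic columns) from C57BL/6 mice. WT mice were Daxx +/+ Cre +/-, Daxx-KO mice were Daxx F/F Cre +/-, and DKO mice carried Daxx F/F and Pu.1 F/F with Cre +/-, so that the controls also carried Cre, whose driver the labels do not name. Cells were taken at 3, 8 or 24 weeks post induction (w.p.i.). At 3 and 24 w.p.i., 2 Daxx-KO and 2 WT libraries were compared for H3.3, the myeloid transcription factor Pu.1, the active mark H3K27ac and the heterochromatin mark H3K9me3, with the Polycomb mark H3K27me3 added at 24 w.p.i. At 8 w.p.i., 3 libraries per genotype were compared for H3K27me3 and H3K9me3. Of the 62 libraries, 54 are in these tables, and the remaining 8, all DKO at 24 w.p.i., were not used here. At 24 w.p.i., the antibodies were applied to cells of the same 4 mice.

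H3.3 differs from the replication-coupled H3 histones at few residues and is placed into chromatin throughout the cell cycle. DAXX binds the H3.3-H4 dimer and, with the remodeller ATRX, is known for placing it at heterochromatin and repeats, whereas the HIRA complex (HIRA, UBN1 and CABIN1), which receives its histones from ASF1A, places H3.3 at active genes and regulatory elements. In blood formation, Pu.1 (encoded by Spi1) drives myeloid fate and binds purine-rich sites with a GGAA core.

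Each site in these tables had already passed a comparison of the same libraries, so no new test of that difference is given, and the difference at a listed site is described by the normalized counts of each library. A normalized count is the number of reads in the site divided by the scaling constant of the library. With 2 libraries against 2, the smallest two-sided p-value that an exact permutation test can reach is 0.33, and with 3 against 3 it is 0.1. A log2 ratio below is the log2 of the ratio of group means after adding 1 to each, and a region without a listed site gives no value in these tables, which does not show that the genotypes were equal there.

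The libraries held on average between 0.20 and 33.78 reads per 600-bp window. For H3.3 at 3 w.p.i., WT replicate 1 had 22.88 reads per window and WT replicate 2 had 3.06. For Pu.1 at 3 w.p.i., the same replicates had 33.78 and 2.75, and the labels of both deep WT libraries give no mouse number. The normalized mean per window also differed between libraries. For H3K27ac at 24 w.p.i. it was 5.39 and 5.84 in Daxx-KO against 8.38 and 8.17 in WT. At 3 w.p.i. it was the deep WT replicate 1 that stood apart, with 16.0 for H3.3 and 17.7 for Pu.1 against 7.43 to 8.29 and 8.87 to 9.75 in the other libraries. Rescaling to that mean shifted log2 ratios by 0.61 for H3.3 and 0.51 for Pu.1 at 3 w.p.i., and by 0.56 for H3K27ac and 0.37 for H3K27me3 at 24 w.p.i. Rescaling by median ratios gave larger shifts at 3 w.p.i. for H3K27ac (1.47) and H3K9me3 (-1.93). For H3.3 (-0.755) and Pu.1 (-0.50) at 3 w.p.i. it went the other way. Rescaling to the mean turned the direction of 3 of the 651 sites. Median ratios turned 9, of which 8 were H3K27ac sites at 24 w.p.i.

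Promoter sequence is shown for the H3.3 genes, Asf1a, Cabin1 and Daxx, since most of the H3K27ac and H3K27me3 differences described below lie at these start sites. Each run is 250 bases upstream of a RefSeq transcript start on GRCm38.p6 (the mm10 build), printed 5′ to 3′ on the strand of the gene. Capitals mark the CCAAT box and its reverse complement ATTGG, searched on both strands and found in 33.8% of 32851 promoters of the same table.
H3f3a promoter (chr1:180813606-180813855, minus strand): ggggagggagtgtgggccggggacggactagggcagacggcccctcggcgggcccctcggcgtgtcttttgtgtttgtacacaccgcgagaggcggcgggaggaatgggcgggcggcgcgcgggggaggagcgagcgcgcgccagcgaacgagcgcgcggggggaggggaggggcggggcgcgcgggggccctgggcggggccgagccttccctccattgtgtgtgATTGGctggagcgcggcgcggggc
H3f3b promoter (chr11:116024505-116024754, minus strand): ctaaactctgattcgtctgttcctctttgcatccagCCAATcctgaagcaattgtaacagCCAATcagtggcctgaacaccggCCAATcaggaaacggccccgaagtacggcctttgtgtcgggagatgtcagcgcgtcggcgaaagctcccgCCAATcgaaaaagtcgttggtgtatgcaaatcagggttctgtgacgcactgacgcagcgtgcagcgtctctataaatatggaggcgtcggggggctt
Asf1a promoter (chr10:53596711-53596960, plus strand): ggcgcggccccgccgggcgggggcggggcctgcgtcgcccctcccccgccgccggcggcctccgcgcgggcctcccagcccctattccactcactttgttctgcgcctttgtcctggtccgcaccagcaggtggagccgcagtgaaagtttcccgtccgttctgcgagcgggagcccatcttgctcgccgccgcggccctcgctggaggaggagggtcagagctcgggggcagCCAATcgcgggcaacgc
Cabin1 promoter (chr10:75764358-75764607, minus strand): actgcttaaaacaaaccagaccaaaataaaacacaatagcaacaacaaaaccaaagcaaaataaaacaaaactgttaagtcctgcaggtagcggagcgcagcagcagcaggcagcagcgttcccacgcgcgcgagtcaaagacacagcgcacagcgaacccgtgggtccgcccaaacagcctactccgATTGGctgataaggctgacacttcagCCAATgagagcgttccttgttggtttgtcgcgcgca
Daxx promoter (chr17:33909195-33909444, plus strand): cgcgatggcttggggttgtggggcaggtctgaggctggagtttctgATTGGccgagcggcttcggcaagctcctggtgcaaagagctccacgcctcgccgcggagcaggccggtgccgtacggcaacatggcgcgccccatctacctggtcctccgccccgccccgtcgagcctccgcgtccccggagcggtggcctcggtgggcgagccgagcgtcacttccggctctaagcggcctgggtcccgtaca
The H3.3 genes encode the same protein, but their promoters differ in these letters. H3f3b carried 4 CCAAT matches and no GGGCGG match on either strand, and H3f3a carried 1 CCAAT match and 4 GGGCGG matches. The GGGCGG motif was present in 32.7% of all promoters. CpG dinucleotides numbered 35 in the H3f3a run, 31 in Asf1a, 29 in Daxx, 19 in H3f3b and 16 in Cabin1, against a median of 6 over all promoters.

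Daxx lies on chromosome 17 (33909414-33915590, plus strand), and its exons 2 to 7, which the floxed allele removes, span 33910431-33914062. Listed sites over these exons were lower in Daxx-KO than in WT in every table that held them. At 3 w.p.i., the H3K27ac site at chr17:33909601-33911450, over exons 2 and 3, had normalized counts of 24.2 and 13.6 in Daxx-KO against 65.6 and 105 in WT. At 24 w.p.i., the H3K27ac site at chr17:33909801-33913400, over exons 2 to 6, had 113 and 93.7 in Daxx-KO against 858 and 368 in WT. The Daxx-KO means were 22.2% and 16.9% of the WT means. The libraries of the genotypes did not overlap, as at 97.6% and 97.3% of all listed sites. Median-ratio rescaling brought the log2 ratio at 3 w.p.i. from -2.11 to -0.75 without turning it. The signal that remained in Daxx-KO was therefore above 0 at both times, and both sites begin upstream of exon 2.

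At 24 w.p.i., a Pu.1 site at chr17:33912801-33913750, which runs from exon 5 to exon 6, had no read in either Daxx-KO library and 63.3 and 44.2 in WT, so that WT was at least 20.8-fold higher than the floor of 3 reads per library. The site held 7 matches to GAGGAA on either strand, of which the run below shows the match near exon 6. GAGGAA was found at least once in 23.3% of all 250-base promoters, which are shorter and of another kind. That share does not tell whether 7 matches in 950 bp are many. In the reference, 39.3% of the bases in the site are soft-masked as repeats. The run shows 200 bases of this 950-bp site, whose reads are known only for the site as a whole, with GAGGAA or TTCCTC in capitals.
Daxx Pu.1 site (chr17:33913145-33913344, plus strand): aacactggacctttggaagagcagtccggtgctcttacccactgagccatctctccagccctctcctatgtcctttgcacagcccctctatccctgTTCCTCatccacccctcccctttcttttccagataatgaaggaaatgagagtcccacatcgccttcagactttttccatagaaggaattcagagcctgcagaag

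Outside the deleted exons, H3K27ac over the start sites on either side went the other way at 24 w.p.i. Most strong start sites were higher at this time: 91.9% of the 4330 listed with a group mean of at least 500. At the Daxx promoter (chr17:33908401-33909500), H3K27ac at 24 w.p.i. was 1569.8 and 1036 in Daxx-KO against 775 and 581 in WT, 1.92-fold higher. At the 3′ end, the site over exon 8 and the start sites of the neighbours Tapbp and Zbtb22 (chr17:33914651-33916950) had 1875 and 1617 in Daxx-KO against 712 and 914 in WT. Lower H3K27ac sites were also listed close by, upstream at chr17:33902651-33905150 (log2 ratio -2.49) and downstream at chr17:33916551-33917700 (-1.01), which overlaps the 3′ block. The 2 blocks of higher H3K27ac flanked the block of lower signal over exons 2 to 6.

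The same arrangement was listed at 3 w.p.i. on the 3′ side. The site at chr17:33915201-33915850 over exon 8 had H3K27ac of 33.9 and 56.1 in Daxx-KO against 2.15 and 15.4 in WT, a log2 ratio of 2.23. The other 6 H3K27ac sites of Daxx that were lower at 3 w.p.i. lay in the 20-kb flanks. In all, 3 of 10 H3K27ac sites of Daxx were higher in Daxx-KO at 3 w.p.i. and 8 of 16 at 24 w.p.i., against 41.5% and 42.5% of all listed sites.

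At the Daxx start site, H3.3 and Pu.1 were higher in Daxx-KO at 3 w.p.i. The H3.3 site at chr17:33909151-33910200 had 82.9 and 122 in Daxx-KO against 40.7 and 20.9 in WT. The Pu.1 site at chr17:33909201-33909900 had 59.9 and 103 in Daxx-KO against 32.4 and 28.8 in WT. Neither pair of groups overlapped, as at 98.4% and 98.1% of all listed sites, and the log2 ratios were 1.70 and 1.38.

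H3K27me3 at the same promoter was lower in Daxx-KO at 24 w.p.i. The site at chr17:33908751-33910100 had 81.4 and 43.2 in Daxx-KO against 252 and 217 in WT, and WT was 3.76-fold higher. All 8 H3.3 sites of Daxx at 3 w.p.i. and 5 of 6 at 24 w.p.i. were higher in Daxx-KO, against 59.4% and 52.6% of all listed sites. For Pu.1, 11 of 12 were at 3 w.p.i. and 3 of 10 at 24 w.p.i., against 56.0% and 48.2%. Daxx has no listed H3K9me3 site at 24 w.p.i., and at 3 w.p.i. it has 1 in its 3′ flank (chr17:33917351-33917950), with no read in Daxx-KO and 8.75 and 8.12 in WT.

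**Figure D1:**
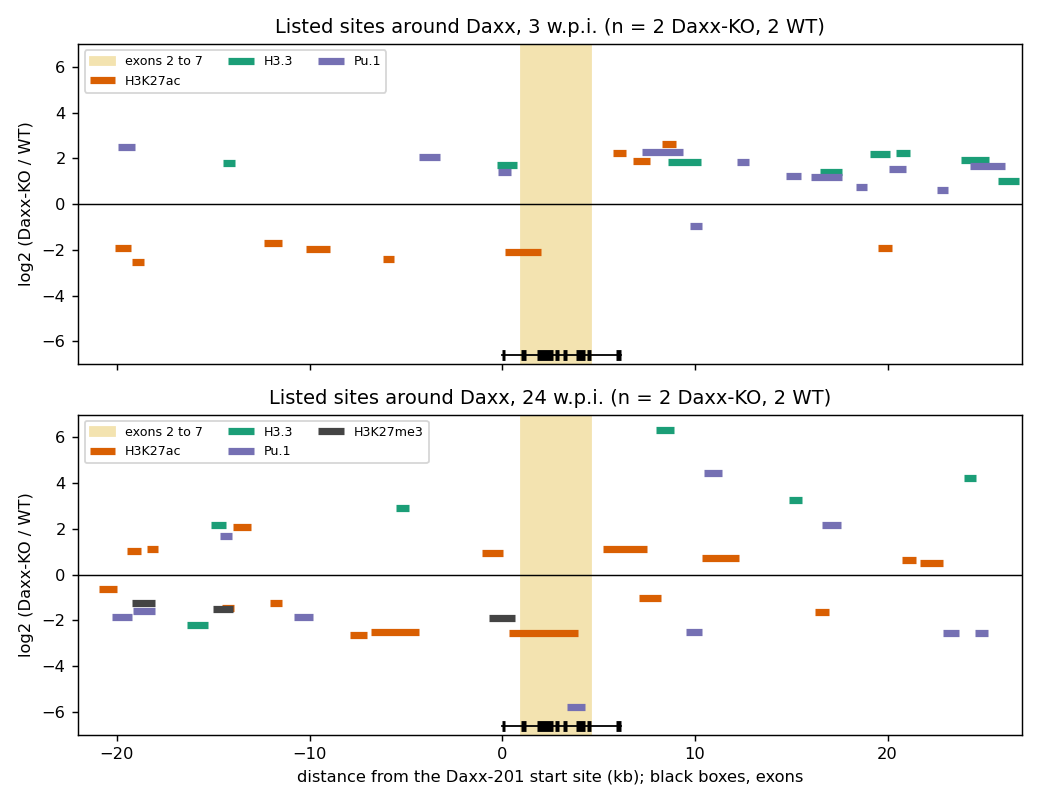
Log2 ratio of Daxx-KO over WT (y axis) for each listed site along Daxx (x axis, kb from the start site), for H3.3, Pu.1 and H3K27ac at 3 and 24 w.p.i. and H3K27me3 at 24 w.p.i., with the exons drawn and the deleted exons shaded. H3K27ac dips over the deleted exons (log2 ratios of -2.11 and -2.56) between higher sites at 24 w.p.i. on either side.

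At most partner genes, H3K27ac over the start site was higher in Daxx-KO at 24 w.p.i., as at strong start sites in general. In 5 of the 6 partners the site that covered the start was higher, in both Daxx-KO libraries against both WT libraries. Of all listed sites that cover a start with a group mean of at least 500, 91.9% were higher as well. The libraries of the genotypes did not overlap at 97.3% of all listed H3K27ac sites at this time. H3f3a (chr1:180800832-180813943, minus strand) had 2499.7 and 2295 in Daxx-KO against 1802 and 846 in WT at chr1:180812601-180813850. H3f3b (chr11:116021912-116027962, minus strand) had 1505 and 1554 against 1060.1 and 763 at chr11:116023351-116025150. These are 1.81-fold and 1.68-fold differences, and the H3f3a range in WT was wide.

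The start sites of the HIRA-route genes showed the same direction. Hira (chr16:18877037-18970309, plus strand), which encodes the WD-repeat subunit, had 958 and 584 in Daxx-KO against 383 and 460.4 in WT at chr16:18876201-18877550. Ubn1 (chr16:5050057-5086289, plus strand), which encodes the subunit that recognizes H3.3, had the strongest signal, 6835 and 6026 against 3973 and 3236 at chr16:5048801-5051000. Asf1a (chr10:53596757-53609225, plus strand), the histone donor, had 1080.5 and 1304 against 802 and 717 at chr10:53596101-53598300. The folds were 1.83, 1.78 and 1.57, and these 3 sites also cover start sites of the neighbours Mrpl40, Glyr1 and Mcm9, from which they cannot be separated.

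With Daxx, the 6 promoters lay between 1.57-fold and 1.92-fold. Of 4330 listed sites that cover the start of a protein-coding gene with a group mean of at least 500, 91.9% were higher in Daxx-KO, with a median of 1.57-fold (log2 ratio 0.65). A site enters that count through either genotype, as Hira did through Daxx-KO; of the 3785 with a mean of at least 500 over all 4 libraries, 93.7% were higher. Under both rescalings their log2 ratios were larger and kept their sign. The exception among the partners was Cabin1 (chr10:75646112-75764341, minus strand), which encodes the remaining subunit of the complex, for which no H3K27ac site covers the start at 24 w.p.i. and the nearest, at chr10:75765251-75765850, had 88.4 and 95.1 in Daxx-KO against 106 and 195 in WT.

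Several weaker H3K27ac sites beside these peaks were lower in Daxx-KO, although the site upstream of H3f3a at chr1:180813901-180814800 was higher, with 1442 and 1121 against 834 and 743 in WT. Of the 17 partner sites within 1 kb of a start site, 6 were higher in Daxx-KO (all such sites of protein-coding genes, 53.6%). Next to the Asf1a peak, the site at chr10:53598201-53598850 in intron 1 had 13.5 and 13.2 in Daxx-KO against 44.7 and 51.4 in WT. Next to the H3f3b peak, the site at chr11:116022701-116023650 had 71.2 and 73.2 against 128 and 151. The same held for the shoulders of H3f3a at chr1:180814551-180815150 and Hira at chr16:18877901-18878550, which turned under median-ratio rescaling, with log2 ratios of -0.68 and -0.61 as deposited and 0.01 and 0.07 after it.

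**Figure D2:**
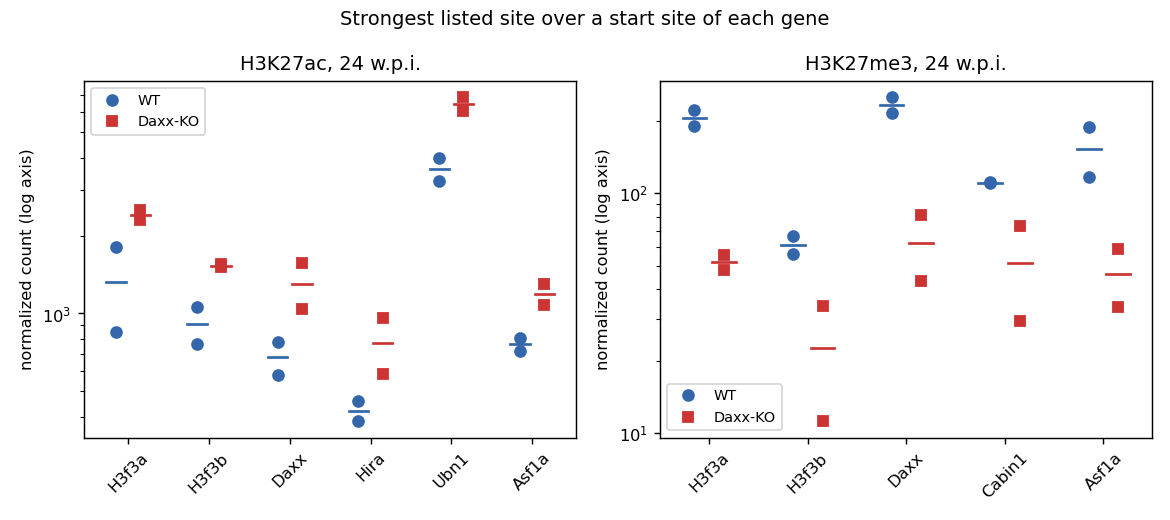
Normalized counts (y axis, log scale) of each Daxx-KO and WT library at the listed sites that cover a start site at 24 w.p.i., for H3K27ac and H3K27me3; points are libraries and bars group means. H3K27ac lies higher in Daxx-KO in 6 genes (1.57-fold to 1.92-fold) and H3K27me3 lower in 5 genes (2.15-fold to 4.01-fold).

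H3K27me3 at 24 w.p.i. was lower at the start sites that were listed. H3f3a had 47.9 and 55.2 in Daxx-KO against 222 and 191 in WT at chr1:180813051-180814700. Asf1a had 33.5 and 58.9 against 118 and 188 at chr10:53596201-53597650. H3f3b had 11.2 and 34.0 against 66.3 and 55.7 at chr11:116023751-116024700. WT was 4.01-fold, 3.31-fold and 2.70-fold higher than Daxx-KO, and no Daxx-KO library reached a WT library. The libraries did not overlap at 97.6% of all listed H3K27me3 sites either. Rescaling raised H3K27me3 log2 ratios at 24 w.p.i. by 0.56 (median ratios) or 0.37 (mean per window). The losses at start sites were therefore smaller after rescaling, while none of the 24 H3K27me3 sites of the 7 genes turned.

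Cabin1 was the fourth partner with such a site. It had H3K27me3 of 73.4 and 29.4 in Daxx-KO against 110 and 111 in WT at chr10:75763751-75764850, 2.15-fold higher in WT, although its start site held no H3K27ac gain. Thus 4 of 4 partner promoter sites were lower, where 71.4% of all listed promoter sites and 82.7% of those that cover a start were lower as well. Over the whole regions, 3 of 21 H3K27me3 sites of the partners were higher (14.3%; 95% Wilson interval, 4.98% to 34.6%), against 41.2% of all listed sites. The interval took in the share over all sites without Cabin1 (3 of 13 sites, 23.1%; 8.18% to 50.3%), without the flanks (0 of 5 sites) and in other alternatives given in the closing section. The 3 exceptions lay in the 3′ flanks of H3f3b and Ubn1, where the Ubn1 site at chr16:5102301-5103750 had 268 and 285 in Daxx-KO against 105 and 146 in WT. Hira had no listed H3K27me3 site at 24 w.p.i. Intervals on shares cover counting error only, since neighbouring sites of a gene come from the same libraries and are not independent.

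At 3 w.p.i., in other mice, H3K27ac at the partner genes was predominantly lower in Daxx-KO. Only 7 of 50 partner sites were higher (14.0%; 95% Wilson interval, 6.95% to 26.2%), against 41.5% of all listed sites and 38.8% of listed sites in any protein-coding gene with its flanks. None of 8 promoter sites was higher (25.4% of all promoter sites were). Of all sites that cover a start site, 81.4% were lower, so the promoter direction was common to most genes, whereas the lower share of the whole regions fell below the background. The 50 sites are spread unevenly, with 17 in Cabin1; without Cabin1 the share was 21.2%.

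Cabin1, H3f3b and Hira had no H3K27ac site that was higher at 3 w.p.i. Cabin1 had 17 lower sites, and among the 1031 autosomal genes with at least 17 sites 1.16% had none higher. H3f3b had 8 and Hira 7, and among 6399 genes with at least 7 sites 7.27% had none higher. The limits of 17 and 7 are the counts of Cabin1 and Hira themselves, and genes with many more sites are included. These shares are therefore descriptive and do not measure how unusual the 3 genes are. The Hira site with the largest ratio, at chr16:18970801-18971750 past the 3′ end, had no read in Daxx-KO against 17.2 and 14.3 in WT, at least 5.78-fold higher in WT.

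At the start sites, the values at 3 w.p.i. were small. H3f3b had 46.5 and 34.0 in Daxx-KO against 69.8 and 191 in WT at chr11:116024001-116025200. Ubn1 had 38.8 and 28.0 against 94.6 and 104 at chr16:5048301-5049500, just upstream of its start and within 1 kb of that of Glyr1. Cabin1 had 1.94 and 6.80 against 29.0 and 21.0 at chr10:75764451-75765150. In these 3 genes the groups did not overlap, as at 97.6% of all listed sites. The site at chr10:53601101-53601700, near an internal start of Asf1a, had 5.81 and 7.65 against 57.0 and 1.1 and was the only partner H3K27ac site at this time whose libraries overlapped.

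The 7 higher sites were in Ubn1 (3), H3f3a (3) and Asf1a (1). In Ubn1, the site over exon 3 (chr16:5054751-5056000) had 21.3 and 32.3 in Daxx-KO against 2.15 and 2.21 in WT, a log2 ratio of 3.13. Downstream of Asf1a, the site at chr10:53615451-53616650 had 110 and 158 against 58.0 and 40.8. In the 3′ flank of H3f3a, the site at chr1:180795201-180796100 had 7.75 and 31.4 against 0 in both WT libraries, at least 6.01-fold higher in Daxx-KO. All 3 lie away from the genes' main start sites.

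At 24 w.p.i., 52 of 146 partner H3K27ac sites were higher (35.6%; 28.3% to 43.7%), against 42.5% of all listed sites, which lies within the interval. It lay above the interval without the flanks (31.9%; 23.2% to 42.0%) and with flanks of 5 kb (31.4%; 23.2% to 40.9%). Asf1a (1 of 8), Hira (4 of 20) and Ubn1 (6 of 22) had the lowest shares of higher sites and H3f3b (12 of 18) the highest, with H3f3a at 8 of 18 and Cabin1 at 21 of 60. At 24 w.p.i., the 5 HSPC marker genes were higher at 10 of 10 listed H3K27ac sites, the 3 neutrophil markers at 6 of 6, B-cell markers at 2 of 4, T-cell markers at 1 of 3 and erythroid markers at 0 of 5. At 3 w.p.i., HSPC markers were higher at 4 of 7 sites, B-cell markers at 0 of 1, T-cell markers at 0 of 4 and erythroid markers at 0 of 2, with no neutrophil site. All these marker sites lie within 1 kb of a start site. Of all such sites of protein-coding genes, 53.6% were higher at 24 w.p.i. and 25.4% at 3 w.p.i. Of the 4330 strong start sites described above, 91.9% were higher at 24 w.p.i. The largest marker site, at S100a8, had group means of 4601 in Daxx-KO and 2512 in WT at 24 w.p.i., and Hba-a1 had 19.2 and 151. The part of the cell make-up in the results on the partner genes was not tested, and in bulk cells more cells with a mark and more mark per cell cannot be told apart.

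**Figure D3:**
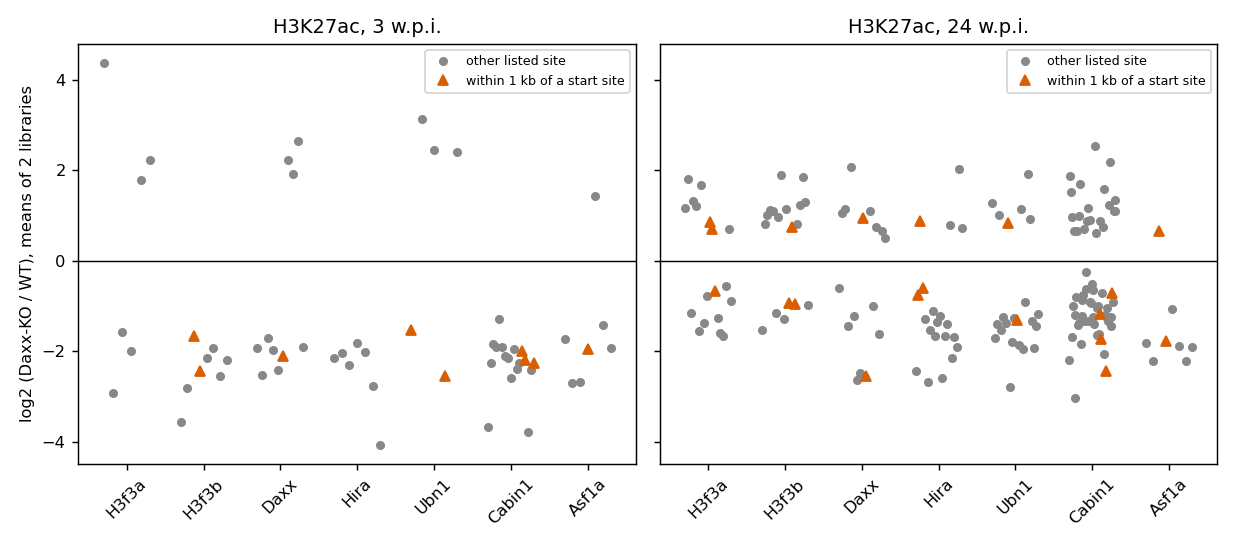
Log2 ratio of Daxx-KO over WT (y axis) of every listed H3K27ac site at each of the 7 genes (x axis) at 3 and 24 w.p.i.; each point is a site, with triangles for sites within 1 kb of a start site. At 3 w.p.i., Hira, Cabin1 and H3f3b have no point above 0, while at 24 w.p.i. every gene has points on both sides.

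H3.3 itself showed no uniform direction at these genes. At 3 w.p.i., 46 of 66 partner sites were higher in Daxx-KO (69.7%; 57.8% to 79.4%), against 59.4% of all listed sites. At 24 w.p.i., 45 of 97 were (46.4%; 36.8% to 56.3%), against 52.6%. Both intervals include the share over all sites, but at 24 w.p.i. that share lay above the interval without the flanks (38.0%; 25.9% to 51.8%) and with flanks of 5 kb (38.6%; 27.1% to 51.6%). The libraries did not overlap at 65 of 66 and 96 of 97 sites, as at 98.4% and 98.3% of all listed sites.

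By gene, all 9 H3.3 sites of H3f3b and 6 of 7 of H3f3a were higher at 3 w.p.i., against 4 of 7 in Hira, 6 of 8 in Ubn1, 21 of 33 in Cabin1 and 0 of 2 in Asf1a. The H3f3b site with the largest ratio, at chr11:116001101-116003250 in its 3′ flank, had 309 and 175 in Daxx-KO against 67.3 and 41.9 in WT. At the H3f3a promoter (chr1:180813701-180814400), H3.3 was 46.6 and 106 against 14.7 and 0, the 0 being in the shallow WT replicate 2 (3.06 reads per window). At 24 w.p.i., 3 of 3 sites of H3f3b and 5 of 8 of H3f3a were higher.

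At the HIRA-complex genes, H3.3 at the start sites went in both directions at 24 w.p.i. Hira had 44.2 and 45.3 in Daxx-KO against 16.6 and 13.2 in WT at chr16:18877351-18878450. Ubn1 had 50.8 and 34.0 against 14.8 and 9.40 at chr16:5049451-5050100. Cabin1 was the reverse, with no read in Daxx-KO against 38.7 and 77.1 in WT at chr10:75762801-75763500 in intron 1, at least 17.3-fold higher in WT. Of these 3 promoter sites 2 were higher, beside 53.8% of all promoter sites. At 3 w.p.i. the partner promoter sites for H3.3 were 1 in H3f3a, which was higher, and 2 in Cabin1, of which 1 was higher, beside 77.4%.

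The loss in Cabin1 intron 1 was listed at both times. At 3 w.p.i., H3.3 at chr10:75762751-75763650 was 1.58 and 22.1 in Daxx-KO against 68.7 and 123 in WT, a log2 ratio of -2.92. Pu.1 at 24 w.p.i. was 19.1 and 0 against 37.4 and 112 at chr10:75762651-75763450. These 3 overlapping sites were 60.0%, 68.6% and 56.4% soft-masked for H3.3 at 3 and 24 w.p.i. and Pu.1, and reads from other copies of a repeat could not be told apart here.

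H3f3a intron 3 also had lower H3.3 at both times. It had 31.6 and 20.6 in Daxx-KO against 54.7 and 94.3 in WT at 3 w.p.i. (chr1:180806601-180807400), and 0 and 1.1 against 99.6 and 109 at 24 w.p.i. (chr1:180806551-180807800), with log2 ratios of -1.48 and -6.07. The next runs show 200 bases within each region, on the minus strand as the genes are read, with capitals for soft-masked bases. All 200 bases of the Cabin1 run are masked and 43 of the H3f3a run.
Cabin1 intron 1 (chr10:75763051-75763250, minus strand): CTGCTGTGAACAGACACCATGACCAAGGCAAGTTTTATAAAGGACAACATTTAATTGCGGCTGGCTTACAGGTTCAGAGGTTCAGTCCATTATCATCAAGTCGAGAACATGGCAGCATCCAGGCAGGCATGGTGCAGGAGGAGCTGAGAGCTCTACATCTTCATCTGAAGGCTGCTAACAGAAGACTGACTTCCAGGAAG
H3f3a intron 3 (chr1:180806901-180807100, minus strand): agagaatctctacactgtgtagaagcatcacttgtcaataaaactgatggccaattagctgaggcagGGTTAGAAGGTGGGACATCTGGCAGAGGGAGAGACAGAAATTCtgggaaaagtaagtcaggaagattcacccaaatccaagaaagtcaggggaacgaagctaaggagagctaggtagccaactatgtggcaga

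For Pu.1 at 3 w.p.i., 48 of 62 partner sites were higher in Daxx-KO (77.4%; 65.6% to 86.0%), above the 56.0% of all listed sites, and without Cabin1 89.3% were. At 24 w.p.i., 42 of 89 were (47.2%; 37.2% to 57.5%), against 48.2%. The libraries did not overlap at 60 and 87 of these sites, as at 98.1% and 98.2% of all. At 3 w.p.i., 77.9% of Pu.1 sites at the 15 other H3.3 pathway genes counted below were also higher. The excess over all listed sites was therefore not particular to the partners. The share over sites in any protein-coding gene was counted only for H3K27ac at 3 w.p.i. The 3 w.p.i. comparison for Pu.1 is the one in which the WT libraries differed most in depth.

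Within that comparison, the promoters of H3f3a and Hira were the 2 partner promoter sites, and both were higher, as were 78.2% of all promoter sites. Hira had Pu.1 of 129.97 and 90.0 in Daxx-KO against 37.1 and 6.39 in WT at chr16:18875951-18877100, where the 6.39 of WT replicate 2 stood for 2 reads. H3f3a had 96.9 and 77.0 against 31.3 and 60.7 at chr1:180813451-180814450. At 24 w.p.i., H3f3a was the reverse, with 1.36 and 8.36 in Daxx-KO against 40.3 and 45.3 in WT at chr1:180813701-180814350.

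At 24 w.p.i., 1 of 6 partner Pu.1 sites near a start was higher, against 43.8% of all. This was a site in Cabin1 intron 25 (chr10:75714451-75715300) near an internal start, with 203 and 104 in Daxx-KO against 25.9 and 26.3 in WT. The main Cabin1 start (chr10:75763701-75764800) was lower, with 21.8 and 0 against 54.7 and 60.0. Hira had the largest ratio away from its start, over exon 4 (chr16:18896701-18897700), with 56.6 and 69.0 in Daxx-KO and no read in WT, at least 16.7-fold higher.

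H3K9me3 was listed at the partners almost only at 24 w.p.i. There, 30 of 41 sites were higher in Daxx-KO (73.2%; 58.1% to 84.3%), against 48.1% of all listed sites, and 39 of 41 did not overlap (97.2% of all). All 9 sites of H3f3a, H3f3b, Ubn1 and Asf1a were higher, as were 5 of 7 in Hira and 16 of 25 in Cabin1. Without Cabin1 the share was 87.5%, and without the flanks it was 66.7% with an interval that took in the share over all sites (47.8% to 81.4%). At the 15 other H3.3 pathway genes counted below, 71.9% of H3K9me3 sites were higher, so the excess was not particular to the partners.

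The H3K9me3 levels were near 0 in WT at several of these sites. Upstream of H3f3b, the site at chr11:116046901-116048350 had 57.4 and 149 in Daxx-KO against 0 and 2.81 in WT. Over exon 25 of Hira (chr16:18969201-18970050), values were 40.2 and 57.3 against 0 in both WT libraries, at least 13.0-fold higher. At the Ubn1 start (chr16:5049451-5050450), H3K9me3 was 82.9 and 56.3 against 0 and 24.4, where 64.2% of all listed promoter sites were higher. That last site overlaps the H3.3 site that was higher in the same 4 mice.

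The partner H3K9me3 sites that were higher held few repeat bases, with a median of 6.96% soft-masked and 1 of 30 masked over at least 50% of its length. Over all higher sites the median was 20.3%, with 20.6% of them masked to that extent. The 11 lower sites had a median of 14.2%, against 30.6% over all lower sites. At 3 w.p.i., the partner list held 1 H3K9me3 site, in Cabin1 intron 26 (chr10:75705351-75706050), with 9.30 and 10.0 in Daxx-KO against 0 and 1.16 in WT, where 78.9% of all listed sites were higher (57.6% under median-ratio rescaling).

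**Figure D4:**
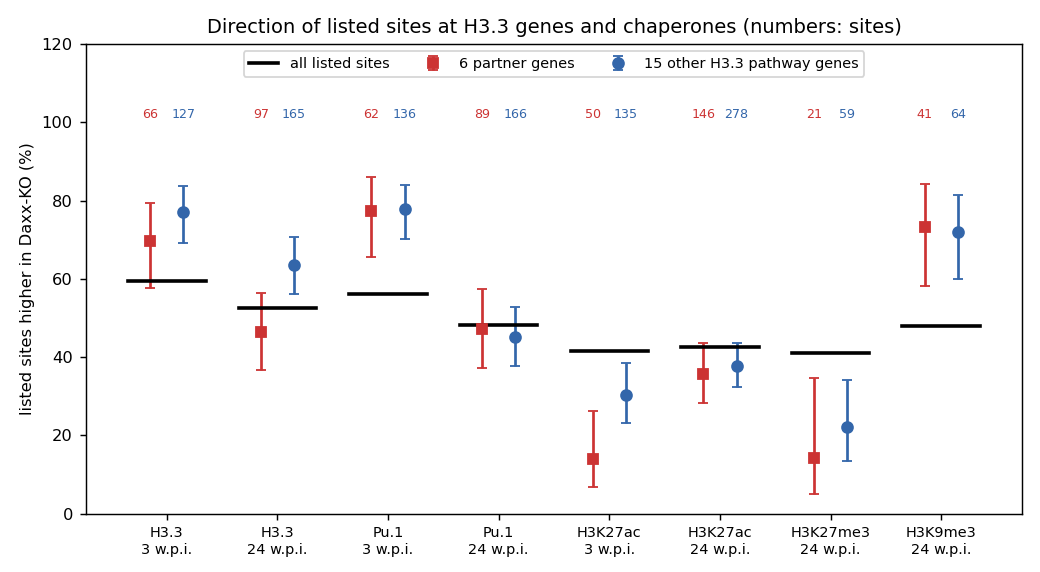
Share of listed sites at the 6 partner genes that were higher in Daxx-KO (y axis, %) for each antibody and time, and at 15 other H3.3 pathway genes, with 95% Wilson intervals and the number of sites above; black lines mark the share over all listed sites. For the partners, the interval lies below the share over all sites for H3K27ac at 3 w.p.i. (14.0% against 41.5%) and H3K27me3 at 24 w.p.i. It lies above that share for Pu.1 at 3 w.p.i. and H3K9me3 at 24 w.p.i., where the 15 other genes had 77.9% and 71.9%. Without the flanks, which are not drawn apart, the H3K27me3 and H3K9me3 intervals took in the share over all sites.

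At 8 w.p.i., few sites were listed at the partner genes. For H3K27me3, DKO against Daxx-KO listed 4 sites, of which 3 were higher in DKO (65.3% of all listed sites were), and DKO against WT listed 2, both higher (56.1%). For H3K9me3, DKO against Daxx-KO listed 1 site, higher in DKO (73.4%), DKO against WT 2, of which 1 was higher (81.4%; 71.0% under median-ratio rescaling), and Daxx-KO against WT 1, higher in Daxx-KO (65.2%). These comparisons share their DKO, Daxx-KO or WT libraries.

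The lower H3K27me3 site in DKO was the Cabin1 promoter (chr10:75763951-75765200), and it overlapped between genotypes. At Daxx, whose exons are deleted in both DKO and Daxx-KO, 2 H3K27me3 sites were lower in DKO, among them chr17:33915601-33916450 with 7.53, 0 and 0 in DKO against 51.1, 8.69 and 14.5 in Daxx-KO. Downstream of Hira, H3K9me3 at chr16:18983901-18984800 was 36.6, 16.3 and 14.6 in DKO against 6.45, 5.99 and 9.23 in Daxx-KO, and 67.1% of that site is soft-masked. Before scaling these were 18, 5 and 20 reads against 13, 12 and 12. The difference thus rested largely on the scaling constants (0.49, 0.31 and 1.37 in DKO, 2.02, 2.0 and 1.3 in Daxx-KO). Rescaling shifted the log2 ratio of 1.52 by -0.73 (mean per window) or -1.02 (median ratios) without turning it. The Ubn1 site of Daxx-KO against WT (chr16:5088401-5089150) had 7.23, 5.52 and 8.02 against 0, 0 and 2.5.

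Where sites of an antibody overlapped at 3 and 24 w.p.i., direction at the partner genes was shared about as often as not. The directions were the same in 19 of 33 pairs for H3.3 (57.6%; 40.8% to 72.8%), 12 of 29 for Pu.1 (41.4%; 25.5% to 59.3%) and 8 of 20 for H3K27ac (40.0%; 21.9% to 61.3%). Over all listed sites the shares were 51.2%, 48.1% and 59.8%, each within its interval. A site that overlapped several sites of the other time point entered several pairs. The pairs are therefore not all distinct sites, although the intervals treat them as independent. No H3K9me3 site of the partners was listed at both times. The 2 time points come from different mice.

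Pairs that were lower in Daxx-KO at both times for H3.3 included, besides H3f3a intron 3 and Cabin1 intron 1, Cabin1 intron 19 (log2 ratios of -2.15 at 3 w.p.i. and -3.70 at 24 w.p.i.), Hira intron 17 (-1.19 and -2.08) and a pair downstream of Asf1a (-2.84 and -3.62). The Ubn1 region had a downstream pair at -1.43 and -4.06. Other H3.3 pairs, in H3f3a, H3f3b, Hira, Ubn1 and Cabin1, were higher in Daxx-KO at both times. Among them were pairs downstream of H3f3a (1.23 and 1.29) and H3f3b (1.83 and 2.51) and over Cabin1 exon 13 (1.85 and 1.60). Daxx had the same direction in 3 of 3 H3.3 pairs, 6 of 9 H3K27ac pairs and 2 of 6 Pu.1 pairs.

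**Figure D5:**
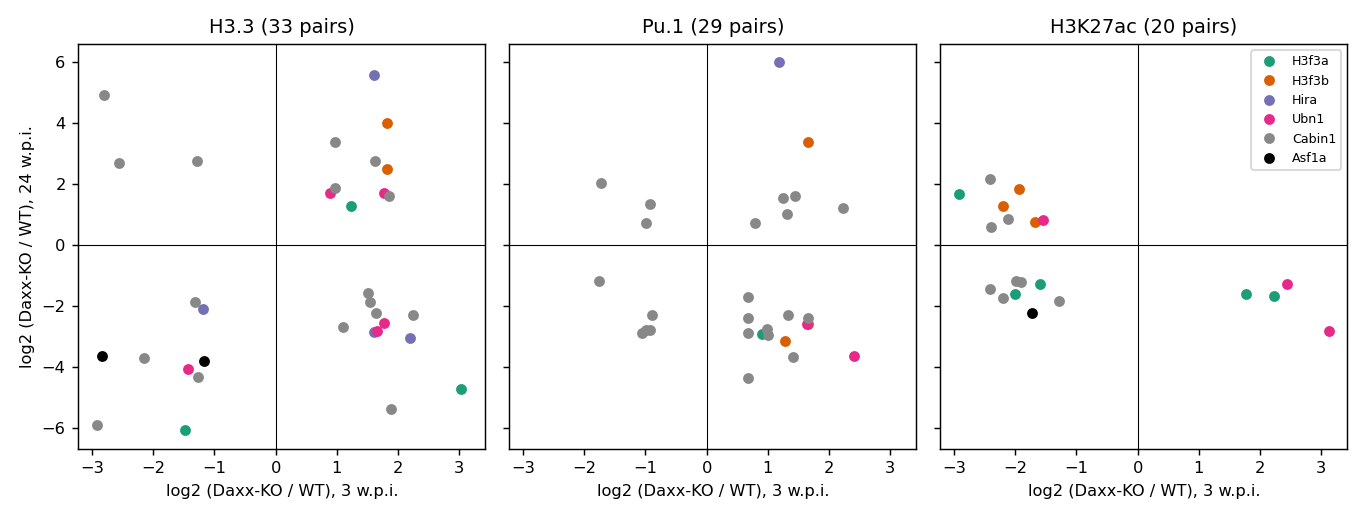
Log2 ratio of Daxx-KO over WT at 3 w.p.i. (x axis) against 24 w.p.i. (y axis) for overlapping sites of the 6 partner genes, in a panel each for H3.3, Pu.1 and H3K27ac; each point is a pair of sites. Pairs fill all 4 quadrants for H3.3 and Pu.1, and for H3K27ac no pair is higher at both times, the 8 of 20 that share a direction being lower at both.

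A list of 15 other genes of the H3.3 pathway (chaperones, remodellers and partner factors) was counted in the same way. Their H3K27ac sites were higher in Daxx-KO at 41 of 135 at 3 w.p.i. (30.4%) and 105 of 278 at 24 w.p.i. (37.8%), and their H3K27me3 sites at 13 of 59 (22.0%). For H3K9me3 at 24 w.p.i. it was 46 of 64 (71.9%), for Pu.1 106 of 136 at 3 w.p.i. (77.9%) and 75 of 166 at 24 w.p.i. (45.2%), and for H3.3 98 of 127 (77.2%) and 105 of 165 (63.6%). The direction relative to all listed sites was the same as in the partners for each mark except H3.3 at 24 w.p.i. Atrx lies on the X chromosome, whose reads were left out of the tables at 24 w.p.i.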

How the data were processed

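CUT&Tag was done on Lin-, c-Kit+ HSPCs of WT, Daxx-KO and DKO mice. Per the labels, the authors processed reads with CASAVA 1.8.4, cutadapt 1.13, STAR 2.5.3 and bedtools on mm10. Per the file headers, diffReps 1.55.6 compared libraries in 600-bp windows moved by 50 bp (negative binomial test, window p cutoff of 0.0001). The deposited value per library and site is a normalized count, the reads divided by a constant in the header. The tables also hold the authors' fold changes, p-values and adjusted p-values, which were not used, and list only sites past their cutoff. The group-mean signal that the authors deposited beside them served only to check the split into libraries. The table whose H3K27me3 Daxx-KO libraries at 8 w.p.i. are set against H3K9me3 controls was not used.

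Sites that overlap a gene body (GENCODE M21) with 20 kb on either side were kept. Direction is that of the group means, log2 ratios used a pseudocount of 1, shares carry 95% Wilson intervals, and fold bounds used a floor of 3 reads per library. Sites were named from those over Daxx exons 2 to 7, those within 1 kb of a start site of the gene, otherwise the site with the largest log2 ratio, and those listed at both 3 and 24 w.p.i. Not every site of these kinds is named in the text. Other sites named as examples were chosen after their values were seen. The members, gene lists and alternatives were chosen with earlier results of these data known. Python 3.11.15, pandas 2.3.3, NumPy 2.4.6, SciPy 1.17.1 and Matplotlib 3.10.9 were used, and the counting was tested on simulated data.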

Additional observations from a re-analysis of the deposited data

Results flagged for a closer look

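Some sites moved in opposite directions at 3 and 24 w.p.i. in every library of both comparisons. At the 6 partner genes this held for 14 of 33 pairs of overlapping H3.3 sites, 16 of 29 pairs of Pu.1 sites and 12 of 20 pairs of H3K27ac sites. Over all listed sites, 51.2%, 48.1% and 59.8% of such pairs shared a direction, so opposite directions were also common in general. At promoters, the log2 ratio of Daxx-KO over WT at 3 w.p.i. minus that at 24 w.p.i. was 3.80 for Pu.1 at H3f3a, -2.42 for H3K27ac at H3f3b and -2.38 for H3K27ac at Ubn1. The difference between the time points was not tested in any of these cases. At 3 w.p.i. the WT libraries for Pu.1 had 33.78 and 2.75 reads per window, and the part of that depth gap in the H3f3a value was not tested.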

How the results depend on the processing

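Of 148 alternative values over 14 results, 141 stayed within the interval or spread of the value reported, 7 moved and 0 reversed. The partner share of higher H3K27me3 sites at 24 w.p.i. was 0.0% both without a flank and with a flank of 5 kb, where 5 and 6 sites remain. Its interval also took in the share over all sites at sites changed at least 2-fold (15.8%; 5.52% to 37.6%, against 36.4%) and without sites near other genes' starts (18.8%; 6.59% to 43.0%, against 42.7%). For H3K27ac at 24 w.p.i. the same 2 settings put the share over all sites above the interval (29.1%; 21.2% to 38.5%, against 38.9%, and 32.6%; 25.2% to 41.0%, against 41.1%). Leaving out Cabin1 gave 87.5% for H3K9me3 at 24 w.p.i. and 89.3% for Pu.1 at 3 w.p.i. Over the floxed exons of Daxx, median-ratio rescaling gave -0.75 for H3K27ac at 3 w.p.i., and for Pu.1 at 24 w.p.i. a pseudocount of 0.5 gave -6.76 and of 5 gave -3.56, since Daxx-KO had no reads there. Leaving out each library in turn gave shares of 45.4% to 46.4% (H3.3, 24 w.p.i.), 69.7% to 71.2% (H3.3, 3 w.p.i.), 35.6% to 36.3% (H3K27ac, 24 w.p.i.), 14.0% to 16.0% (H3K27ac, 3 w.p.i.), 14.3% (H3K27me3), 73.2% to 75.6% (H3K9me3), 46.1% to 47.2% (Pu.1, 24 w.p.i.) and 75.8% to 77.4% (Pu.1, 3 w.p.i.), and log2 ratios over the floxed exons of -3.04 to -1.82, -2.56 to -1.74 and -6.01 to -5.50. No paired analysis was possible because the results come from no test. The tables list only sites past the authors' cutoff, so a region without a site could not be weighed, and 2 libraries per genotype limit every comparison at 3 and 24 w.p.i.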
